A study of Mus musculus with 38 samples.

Results

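The 10 genes described here, Tff1, Gkn1, Muc5ac, Psca, Anxa10, Cldn18, Atp4a, Atp4b, Lgals4 and Tspan8, are genes of the stomach lining that were measured in mouse embryonic stem cells (mESCs) and in the cells derived from them with all-trans retinoic acid (RA). They were chosen by their counts: a long-term culture of extraembryonic endoderm-like (XEN-like) cells held many of their transcripts while the other bulk RNA-seq libraries held few. The contrast of that culture with freshly sorted XEN-like cells is therefore a description of the choice, and no test is given for it. The set makes up 10 of 23481 genes listed in the bulk table. The set was given as a list of names, with no threshold on a value.

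All cells came from the mESC line E14. mESCs were kept in 2i medium (a MEK and a GSK3 inhibitor) with LIF, called 2i/L, in which they stay pluripotent, and were then moved to N2B27 basal medium with 0.25 µM RA for up to 96 h. The bulk libraries comprised 2 of mESCs, 1 each at 6, 12, 24, 36, 48, 60, 72, 84 and 96 h of RA, 4 of PDGFRA- cells at 48 h sorted by quartile of CD24 (Q1 to Q4), 3 of PDGFRA- cells at 72 h sorted by tercile of CD24 (T1 to T3), 1 of PDGFRA+/CD24- cells at 72 h, 2 of ectoderm-like cells (CD24+/PDGFRA-) and 2 of XEN-like cells (PDGFRA+/CD24-) sorted at 96 h, and 1 each of the sorted ectoderm-like cells after 5 passages and of the sorted XEN-like cells after 3 weeks in culture. Both cultures were kept without further RA in N2B27 with 20 ng/ml EGF and 10 ng/ml FGF2, and the XEN-like cells grew as floating aggregates. Single cells were profiled by SCRB-seq in 9 samples (mESCs and 6, 12, 24, 36, 48, 60, 72 and 96 h of RA) and by full-length SMART-seq2 in 4 samples (mESCs and 12, 24 and 48 h), and none of these came from the long-term cultures.

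The XEN-like culture is thus 1 library of cells sorted on surface proteins, without a replicate. Bulk libraries held between 1063809 and 2459424 unique molecular identifiers (UMIs, counted transcript molecules), and the XEN-like culture held 1449567. Each counted molecule was read at its 3′ end, so that CPM, the UMIs of a gene scaled to the same total in each library, are not divided by transcript length and can be compared between genes as numbers of molecules. Intervals given with single libraries are 95% exact Poisson intervals, which cover counting error only. In a bulk sample, fewer cells of a type and less RNA per cell cannot be told apart.

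The glandular stomach is lined by a columnar epithelium whose surface and pits are covered by mucous cells that secrete mucin and small protective peptides. Below them, mucous neck cells and chief cells make a second mucin and digestive proenzymes, parietal cells pump acid, and scattered endocrine cells release hormones. Tff1 is a trefoil peptide, Gkn1 a gastrokine and Muc5ac the mucin of the surface mucous cells, which also carry the GPI-anchored surface protein Psca and the annexin Anxa10. Cldn18 is a tight junction protein of the whole gastric epithelium. Atp4a and Atp4b are the catalytic and the accessory subunit of the proton pump of parietal cells. Lgals4, a galectin, and Tspan8, a tetraspanin, are found in columnar epithelium of the intestine as well.

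The promoter windows of some members are shown first, because the genes share a high level in the same library. A window runs from 250 bases before to 50 bases after an annotated start and is written 5′ to 3′ on the strand of the gene (RefSeq, GRCm38.p6). The table used held 6 of the 10 members in 7 windows. Tff1, Psca, Muc5ac and Atp4b had no entry. Windows were searched for AGATAA or its complement TTATCT, the core bound by GATA factors, for TGTTTAC or its complement GTAAACA, bound by forkhead factors, and for a TATA box, TATAAA, on the gene strand only. The motifs were picked with earlier results of these data known, and a match is a description of the letters. Capitals mark the matches. Gkn1 is shown as the member with a GATA core whose level is among the highest, Cldn18 for its pair of GATA cores, Anxa10 for its TATA box and Tspan8 for its forkhead core.
Gkn1, chr6:87350866-87351165, minus strand: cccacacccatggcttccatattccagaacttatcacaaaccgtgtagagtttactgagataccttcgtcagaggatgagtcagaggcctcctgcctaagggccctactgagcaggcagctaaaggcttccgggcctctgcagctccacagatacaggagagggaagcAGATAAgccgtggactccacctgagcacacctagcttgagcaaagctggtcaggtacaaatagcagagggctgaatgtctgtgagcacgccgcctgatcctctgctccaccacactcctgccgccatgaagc
Cldn18, chr9:99717218-99717517, minus strand: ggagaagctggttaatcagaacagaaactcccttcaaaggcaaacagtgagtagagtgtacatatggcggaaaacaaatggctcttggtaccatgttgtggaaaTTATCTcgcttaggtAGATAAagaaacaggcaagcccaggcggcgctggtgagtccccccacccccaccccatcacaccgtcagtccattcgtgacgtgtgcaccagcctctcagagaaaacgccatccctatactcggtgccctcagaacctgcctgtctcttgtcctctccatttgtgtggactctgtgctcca
Anxa10, chr8:62123144-62123443, minus strand: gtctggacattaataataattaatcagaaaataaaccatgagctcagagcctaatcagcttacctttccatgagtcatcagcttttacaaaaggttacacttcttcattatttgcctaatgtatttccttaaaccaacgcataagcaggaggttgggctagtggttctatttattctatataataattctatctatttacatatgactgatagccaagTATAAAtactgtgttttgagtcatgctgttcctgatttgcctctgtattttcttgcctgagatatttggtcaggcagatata
Tspan8, chr10:115817034-115817333, plus strand: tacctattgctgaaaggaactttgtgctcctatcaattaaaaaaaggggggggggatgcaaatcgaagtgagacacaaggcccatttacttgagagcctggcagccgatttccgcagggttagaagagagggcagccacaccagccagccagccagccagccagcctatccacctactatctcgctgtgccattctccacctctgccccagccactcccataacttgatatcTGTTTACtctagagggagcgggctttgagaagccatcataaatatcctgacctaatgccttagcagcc

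A GATA core stood in 2 of the 7 windows, against 11.2% of all 32851 promoter windows of the same length. The forkhead core stood in 1 window, against 3.65% of all, and the TATA box in 1, against 8.32%. The windows of Lgals4, Atp4a and the second start of Cldn18 held none of these letters.

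Transcripts of surface mucous cells made up most of what the members contributed to the XEN-like culture. Tff1 and Gkn1 together held 160406 UMIs, 11.1% of the library, and the 10 members together 180150, or 12.4%. In the other 24 libraries the members summed to between 0.00379% and 0.0144% of the UMIs. Among the rows used, which leave out Gkn2 and the ribosomal Rn45s because of damaged values, Tff1 and Gkn1 were the genes with ranks 1 and 2 in the culture.

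Tff1 (chromosome 17, 31161395 to 31165277, minus strand, GRCm38) had 82016 UMIs in the culture, a level of 56580 CPM (interval 56193 to 56968). The sorted XEN-like cells held 78 UMIs in replicate 1 and 25 in replicate 2, and the other 22 libraries 21 to 88. Gkn1 (chromosome 6, 87345650 to 87350942, minus strand) had 78390 UMIs, or 54078 CPM (53700 to 54458), in the culture and 75 and 19 UMIs in the sorted XEN-like replicates. That no other library reached the culture goes with how the genes were chosen, and it held for non-members such as Dpcr1 and Ctse as well. On the chromosome, Tff1 lies beside the other trefoil genes Tff2 and Tff3, which held 215 and 440 UMIs in the culture and 0 in both sorted XEN-like libraries.

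The remaining surface mucous members were lower than Tff1 and Gkn1 in the culture, over a wide range. Psca (chromosome 15, 74714839 to 74717069, plus strand) had 7171 UMIs in the culture, rank 11 among the rows used, and 6 and 1 in the sorted XEN-like replicates. Muc5ac (chromosome 7, 141788972 to 141819231, plus strand) had 2352 UMIs in the culture and 1 and 0 in the sorted replicates. The transcript of the secreted mucin was thus present at 1623 CPM (1558 to 1689), far below the level of the peptides Tff1 and Gkn1. Anxa10 (chromosome 8, 62057042 to 62123150, minus strand) had 857 UMIs in the culture and 0 in both sorted replicates. All 5 surface mucous members together held 94.8% of the members' UMIs in the culture.

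Cldn18 (chromosome 9, 99689461 to 99717267, minus strand), the tight junction protein of gastric epithelium, had 1951 UMIs in the culture, or 1346 CPM (1287 to 1407), and 0 and 1 in the sorted XEN-like replicates. The gene has more than one annotated start, and counts from the 3′ end do not say which was used.

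The parietal cell members were the lowest. Atp4b (chromosome 8, 13386205 to 13396825, minus strand) had 102 UMIs in the culture, 70.4 CPM (57.4 to 85.4), and 0 UMIs in every one of the other 24 libraries. Atp4a (chromosome 7, 30712209 to 30725534, plus strand) had 32 UMIs, 22.1 CPM (15.1 to 31.2), in the culture, 0 in both sorted XEN-like replicates and at most 2 elsewhere. Both subunits of the proton pump were therefore detected in the culture, and together they held 0.0744% of the members' UMIs.

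The members shared with intestine were intermediate. Lgals4 (chromosome 7, 28833854 to 28841708, plus strand) had 5158 UMIs in the culture, 3558 CPM (3462 to 3657), and 12 and 6 in the sorted XEN-like replicates. Tspan8 (chromosome 10, 115816832 to 115849893, plus strand) had 2121 UMIs, 1463 CPM (1402 to 1527), in the culture and 12 and 6 in the sorted replicates. The next highest count in another library was 19 for Lgals4 (T1 at 72 h) and 31 for Tspan8 (96 h of RA).

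**Figure D1:**
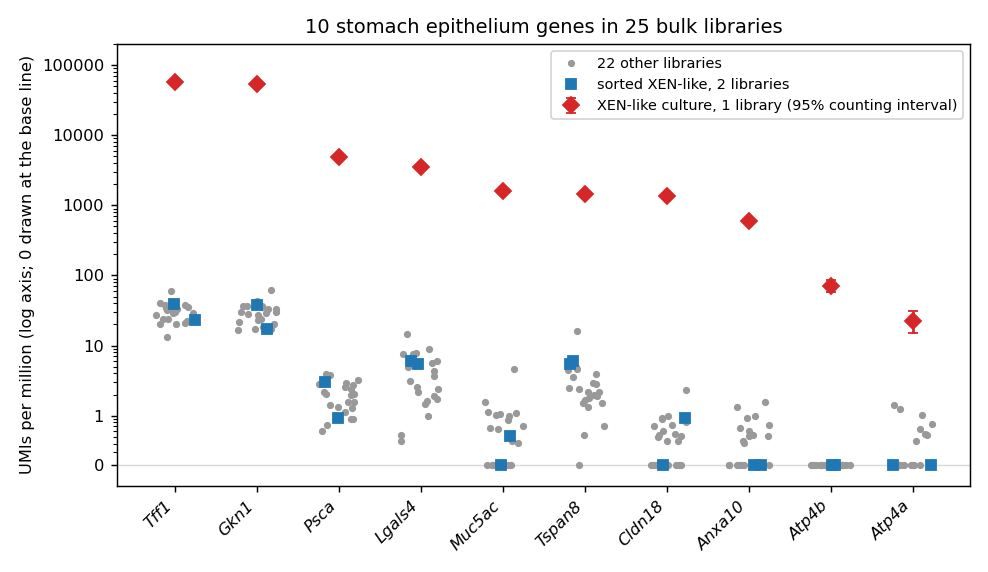
CPM (log axis, with 0 drawn at the base line) of the 10 genes in each of 25 bulk libraries, ordered by the count in the XEN-like culture. Red diamonds are the culture with 95% counting intervals, blue squares the 2 sorted XEN-like libraries and gray points the 22 others. The genes were chosen for a high level in the culture, which runs from 22.1 for Atp4a to 56580 for Tff1.

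Expressed as a ratio of CPM to the pooled sorted XEN-like libraries, the culture was 249-fold higher for Tspan8 (exact conditional 95% interval 157 to 421) and 606-fold higher for Lgals4 (383 to 1023). Tff1 was 1684-fold higher (1389 to 2064) and Gkn1 1764-fold higher (1441 to 2183), as ratios of counts whose lower part is described below. Without sorted XEN-like replicate 1, the log2 ratio was 11.28 in place of 10.72 for Tff1 and 11.61 in place of 10.78 for Gkn1. Both are outside these counting intervals. Without replicate 2 the log2 ratios were 10.48 and 10.47, and that of Gkn1 was again outside its interval. Anxa10, Atp4b and Atp4a had no UMI in the sorted XEN-like libraries. By the exact lower limit they were at least 490-, 57.4- and 17.3-fold higher, and with the group set to a floor of 3 UMIs the ratios were 604, 71.9 and 22.6. Without sorted XEN-like replicate 1, the smaller total left lowered these log2 ratios at the floor from 9.24, 6.17 and 4.50 to 7.76, 4.69 and 3.01, and without replicate 2 they were 8.60, 5.53 and 3.86. More than 10-fold with at least 50 UMIs were 9 of the 10 members, Atp4a being the exception by its count. Of all 5312 genes with at least 50 UMIs in the culture or in sorted XEN-like cells, 296 (5.57%) passed the same rule. Since the members were selected on this contrast, their share is given beside that of all genes only as a description.

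Other genes of the gastric cell types were counted from lists picked with earlier results of these data known. Among 13 further surface mucous genes, 8 had enough UMIs for the 10-fold rule and 7 were past it, with a median log2 ratio of 8.41 over the 8, beside a median of -0.26 over all 5312 genes. For this and the lists below, the share of all genes past the rule was 5.57%. The 7 had enough UMIs only through the culture, which favors passing the rule, so their count is a description. The same holds in the lists below for genes past the rule with fewer than 50 UMIs in the sorted libraries together. Examples are Tff2, Kcnj15, Sox21, Cdh1 and Ocln. Dpcr1, a mucin-like gene, had 2705 UMIs in the culture and 0 and 1 in the sorted XEN-like replicates. Ctse, the protease cathepsin E of surface cells, had 1265 against 0 and 1. Lypd8 had 828 against 0 and 0, Gcnt3, a glycosyltransferase that branches mucin sugars, 528 against 3 and 1, and Vsig1, an adhesion protein of gastric epithelium, 392 against 1 and 1. Foxq1, a forkhead factor needed for Muc5ac in mouse stomach, was the gene not past the rule, with 144 UMIs in the culture and 86 and 22 in the sorted libraries. The further genes without enough UMIs were Capn9 with 42 in the culture, Sult1c2 with 32, Gkn3 with 20, Capn8 with 15 and Aqp5 with 0.

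Genes of the deeper gland were fewer. Of 9 mucous neck and chief cell genes, 2 reached 50 UMIs. Tff2, the trefoil peptide of neck cells, had 215 UMIs in the culture and 0 in both sorted libraries, and the pepsinogen gene Pga5 had 1216 against 138 and 112, a ratio of 10.3 (8.97 to 11.8). Pga5 already stood at 312 UMIs after 96 h of RA and at 13 in mESC replicate 2. The mucin Muc6 of neck cells had 1 UMI in the culture, and intrinsic factor (Gif), the chitinase gene Chia and gastric lipase (Lipf) had 0.

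Partners of the proton pump were mostly sparse. Of 8 further parietal genes, 2 had enough UMIs and 1 of them, the potassium channel gene Kcnj15, was past 10-fold, with 80 UMIs against 1 and 1. Kcnq1 and Kcne2, the channel subunits that return potassium to the parietal cell canaliculus, had 10 and 2 UMIs in the culture, and the chloride transporter Slc26a9 had 9. The histamine receptor Hrh2 and the water channel Aqp4 had 0. Car2, a carbonic anhydrase of parietal and many other cells, had 4455 UMIs against 1839 and 395, a ratio of 4.22 (4.01 to 4.44). Of 8 gastric endocrine genes, none passed 7 UMIs, and gastrin (Gast) had 0.

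Transcription factors of the gut moved less. Only Sox21, of 10 measured regulators with at least 50 UMIs in the culture or in sorted XEN-like cells, was past 10-fold, with 96 UMIs against 6 and 2. Klf4 was just under, with 496 against 84 and 29, a ratio of 9.28 (7.55 to 11.5). The endoderm factors Gata4, Gata6, Sox17 and Foxa2 had 262, 206, 252 and 159 UMIs, where the pooled sorted XEN-like level was 93.6, 128, 139 and 28.7 CPM and the culture's 181, 142, 174 and 110 CPM. Sox2 and Barx1, factors of the developing stomach, had 2 UMIs each in the culture, Pdx1 of the antrum and duodenum had 0, and the intestinal factors Cdx1 and Cdx2 had 0 and 1. The median log2 ratio over the 10 regulators was 0.64.

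Intestinal genes were present in part. Beside Lgals4 and Tspan8, all 5 further intestinal genes with enough UMIs were past 10-fold, out of 18 listed, beside 5.57% of all 5312 genes. All 5 had enough UMIs only through the culture, which favors passing the rule, so this count is a description. Lgals2 had 1181 UMIs against 18 and 15 in the sorted XEN-like replicates, Agr2, a chaperone of mucin-secreting cells, 997 against 1 and 0, Fabp2, a fatty acid carrier, 477 against 0 and 1, Tff3 440 against 0 and 0, and Phgr1 205 against 2 and 0. The defining intestinal genes Cdh17, Sis and Olfm4 had 0 UMIs, and the goblet cell mucin Muc2 had 45.

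Genes of the XEN-like state were still present in the culture. Sparc, a matrix protein gene, stood at 8536 UMIs against 10739 and 3745 in the sorted libraries, and none of the 11 XEN genes was past 10-fold in either direction, with a median log2 ratio of 0.16. Dab2 was at 203 UMIs against 2486 and 1042 in the sorted libraries, and Pdgfra, the gene of the sorting marker, at 50 against 283 and 157. Of 12 visceral endoderm genes, 6 had enough UMIs, and 3 were past 10-fold higher and 3 past 10-fold lower. The higher were Ttr (1037 against 51 and 99), Apoa1 (130 against 2 and 1) and Afp (118 against 6 and 2). The lower were Rbp4 (1 against 44 and 21) and the endocytic receptor genes Lrp2 (1 against 188 and 42) and Cubn (14 against 463 and 82). In 1 bulk library it cannot be told apart whether XEN and stomach transcripts came from the same cells. Of 12 pluripotency genes, Tfcp2l1 (106 against 11 and 11) was past 10-fold higher and Dppa5a (319 against 11710 and 4774) past 10-fold lower, among 7 with enough UMIs.

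Markers of other tissues were at or near 0. Of 10 lung and urothelium genes, 7 were at 0, the sum was 8 UMIs, and Sftpc, Scgb1a1 and Nkx2-1 were at 0. Genes of neural progenitors summed to 60 UMIs, with Sox11 highest at 22. Blood genes summed to 20 UMIs with Ptprc at 0, and mesenchyme genes to 38 UMIs, with 1 UMI of Col1a1. In the squamous list, Krt5, Krt13, Krt4 and Trp63 were at 0 while Sprr2a2 had 5418 UMIs and Ivl 56. Sprr2a2 shares reads with the near-identical Sprr2a1, so its own count is uncertain. Of 10 simple epithelium genes, 6 had enough UMIs and 3 were past 10-fold (Krt19, Cdh1 and Ocln). The keratin genes Krt8, Krt19 and Krt18 had 1604, 1206 and 785 UMIs, and Cdh1, the epithelial cadherin, had 278 against 16 and 10 in the sorted XEN-like libraries. The claudin genes of this list were low, with 5 UMIs of Cldn7 against 16 and 11, 1 of Cldn3 and 0 of Cldn4.

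**Figure D2:**
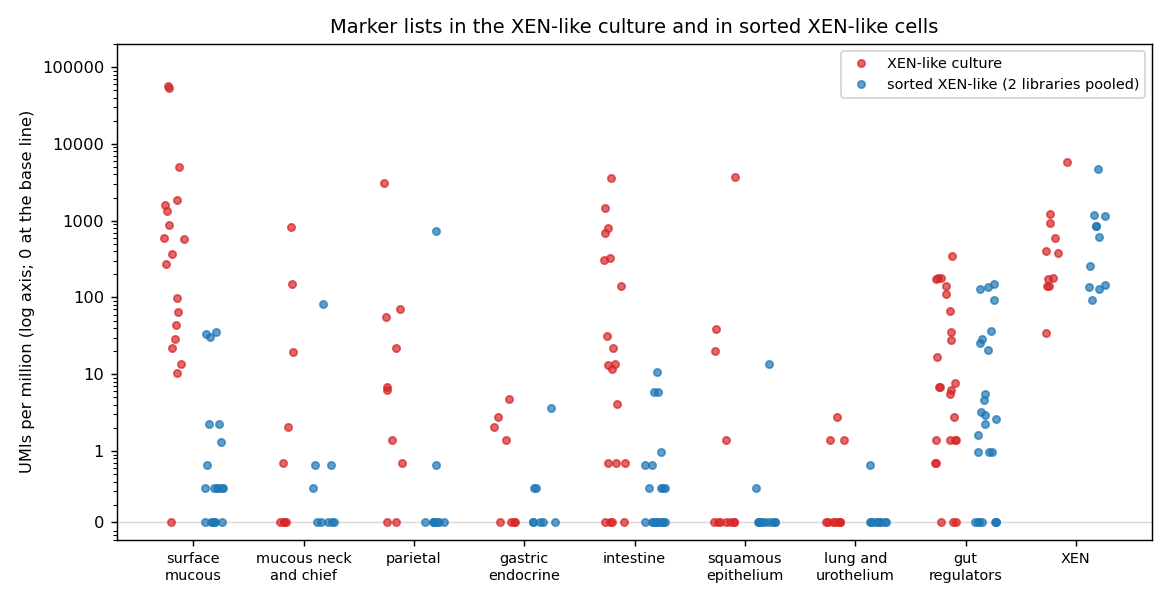
CPM (log axis, 0 at the base line) of each gene of 9 marker lists in the XEN-like culture (red) and in the pooled sorted XEN-like libraries (blue), with 1 point per gene. In the surface mucous list 7 of 8 non-member genes with enough UMIs were more than 10-fold higher in the culture, beside 5.57% of all genes. Those 7 had enough UMIs only through the culture, which favors passing the rule. The 6 members of that list were chosen by this contrast and are not counted. The XEN list held 0 of 11 such genes.

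Likeness of other genes to the members across the 25 libraries was measured as Pearson's r of log2(CPM + 1) with the mean profile of the 10 members, over 3405 genes with at least 50 UMIs in the culture. Since a single library carries nearly all of the variation, these values describe presence in that library. Rbp2, an intestinal retinol binding protein, had 95 UMIs in the culture and 0 in all others (r = 0.993), and so had Cyp2d12 with 51 (r = 0.993). Mx1, Ces2g, Muc5b, Ces2c, Cyp2d10, Chst4, Phgr1 and Ivl followed with r of at least 0.986. Between any 2 members r was at least 0.743. The non-member genes with most UMIs among those with at least 95% of their summed CPM in the culture were Gsta1 (6651), Sprr2a1 (5472), Sprr2a2 (5418), Gm3776 (4239), Dpcr1 (2705), 9130204L05Rik (1868), Ctse (1265), Tm4sf4 (1167), Gsta2 (1012) and Agr2 (997). Gsta1, Gsta2 and Gm3776 are glutathione transferase genes of near-identical sequence, and their counts are uncertain for the same reason as those of Sprr2a.

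All other bulk libraries, mESCs included, held low counts of Tff1 and Gkn1, and their size was compared with that of other genes seen almost only in the culture. The 9 non-member genes with at least 1000 UMIs and 95% of their summed CPM in the culture reached 0.0571% to 0.268% of their culture count in the other libraries, with a median of 0.106%. The highest was sorted XEN-like replicate 1, followed by 96 h of RA at 0.168%, and in sorted XEN-like replicate 1 Sprr2a1 and Sprr2a2 had 25 and 35 UMIs. Taken as the median over these genes in each library, a measure added after seeing the data, the level was 0.0791% (median over libraries).

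Tff1 stood at a median of 0.0732% of its culture count and Gkn1 at 0.0823%. The counting interval of Tff1 lay below the level of the 9 genes in 17 of the 24 libraries and above it in 1, and that of Gkn1 below in 16 and above in 2. This order depends on the 9 genes, of which Sprr2a1 and Sprr2a2 held 220 and 243 UMIs in the other libraries. With 99% of summed CPM required, 2 genes were left and the level was 0.0439%, below the medians of Tff1 and Gkn1. Here and below, the level was taken as exact, without its own counting error. Over the 24 libraries Gkn1 had 0.981 UMIs for each UMI of Tff1, and 0.956 in the culture itself, with single libraries between 0.697 and 1.29. The counts were not even across libraries: 9 libraries held 21 to 38 UMIs of Tff1, and the next 15 held 52 to 88, with no value between. Gkn1 was split into the same 9 and 15 libraries, with 19 to 32 in the former and 50 to 82 in the latter. The 9 were Q1 to Q4, T1, T2, PDGFRA+/CD24- at 72 h and replicate 2 of both sorted 96 h populations, with totals of 1063809 to 1583762 UMIs, against 1302895 to 2459424 in the 15.

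Psca, Muc5ac, Cldn18 and Anxa10 had lower medians, 0.0418%, 0.0425%, 0.0513% and 0.0583% of the culture count. The interval of Psca lay below the level of the 9 genes in 9 libraries and above it in none, and that of Muc5ac below in 2 and above in 1. Muc5ac had at most 6 UMIs (T3 at 72 h) and Cldn18 and Anxa10 at most 3 in any other library. Whether these low counts were transcripts of the cells or molecules assigned to the wrong library was not tested.

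The interval also lay above the level of the 9 genes for Atp4a in 6 libraries, each with 1 or 2 UMIs, where the level itself came to less than 1 UMI. Lgals4 and Tspan8 had larger counts of this kind. Lgals4 had 4 and 5 UMIs in the mESC replicates, 1 to 4 between 6 and 36 h, then 9, 10, 3, 6 and 11 at 48, 60, 72, 84 and 96 h. In the sorted libraries it had 3 to 10 in Q1 to Q4, 19, 9 and 10 in T1, T2 and T3, 12 in PDGFRA+/CD24- cells, 9 and 4 in the ectoderm-like and 12 and 6 in the XEN-like replicates. Its level was thus highest in T1 at 72 h, 14.8 CPM, where the level of the 9 culture genes would have given 7.62 UMIs (19 observed, interval 11.4 to 29.7). In 4 libraries its interval lay above that level, in none below.

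Tspan8 had 5 and 5 UMIs in mESCs, 0 to 4 between 6 and 36 h, and then 6, 6, 9, 9 and 31 from 48 to 96 h of RA. The 31 UMIs at 96 h (lower limit 21.1) compared with 3.56 at the level of the 9 culture genes, and 96 h was the library with the most Tspan8 outside the culture. The sorted XEN-like replicates had 12 and 6, and the sorted ectoderm-like replicates 3 and 7, so that neither population reached the level of the unsorted cells at 96 h (15.9 CPM against at most 6.09 CPM). In 6 of 24 libraries the interval of Tspan8 lay above the level of the 9 culture genes, 2 of them the sorted XEN-like libraries. The ectoderm-like culture had 1 UMI each of Lgals4 and Tspan8.

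**Figure D3:**
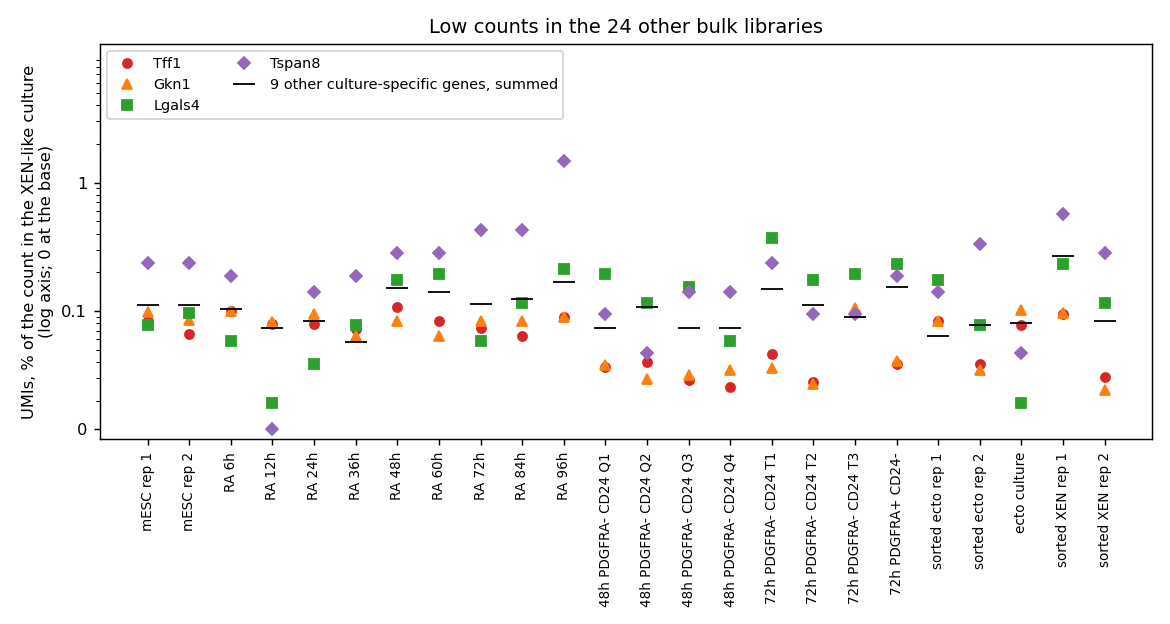
UMIs of Tff1, Gkn1, Lgals4 and Tspan8 in the 24 other bulk libraries, as percent of the count in the XEN-like culture (log axis, 0 at the base), with the summed level of 9 other culture-specific genes as a black dash. Tff1 and Gkn1 move together between 0.0242% and 0.107%, while Tspan8 reaches 1.46% at 96 h of RA and Lgals4 0.368% in T1 at 72 h.

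Differences between the replicated populations were tested with edgeR's quasi-likelihood test on 6 libraries, 2 each of mESCs, sorted ectoderm-like and sorted XEN-like cells. The study's methods call them biological replicates, and the labels do not say how they were made. This fit had no replicate block, and a fit with a block is given further below. Of the members, 4 passed the filter on low counts (Tff1, Gkn1, Lgals4 and Tspan8) and 6 did not. None of the 4 was called at an adjusted p of 0.05 or had an unadjusted p under 0.05 in any of the 3 comparisons, and DESeq2 called 0 as well. Of all 8945 genes tested, 22.8% were called between sorted XEN-like cells and mESCs, 19.1% between sorted ectoderm-like cells and mESCs, and 12.7% between the sorted populations. The largest differences were those of Lgals4, with a log2 difference of 1.32 ± 0.63 (SE) between sorted XEN-like cells and mESCs (adjusted p = 0.162), and of Tspan8, with 1.17 ± 0.66 (adjusted p = 0.229). Tff1 differed by 0.03 ± 0.37 (adjusted p = 0.963). Between the sorted populations the differences were 0.69 ± 0.60 for Lgals4 (adjusted p = 0.518) and 1.02 ± 0.66 for Tspan8 (adjusted p = 0.362). These p-values do not show that the populations were alike.

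Single cells gave a view of the members before any long-term culture. In SCRB-seq, 2448 wells over 2000 UMIs were kept from 3456, with medians of 3560 to 5069 UMIs per cell at the 9 time points. All 9 samples share the same 384 well names, and no 2 wells held the same profile. Gkn1, Muc5ac, Anxa10, Cldn18 and Atp4b had 0 UMIs in 2448 cells. With all 9 time points pooled, an approximate limit allows a share of cells with a UMI of up to 0.123%. At 96 h alone, with 137 cells, the exact interval of this share reached 2.66% for each of these genes. Tff1 had 1 UMI (6 h) and Psca 1 (72 h). Over the 15725890 UMIs of these cells, the highest genes of the culture were thus nearly undetected.

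Lgals4 was the member detected most, with 82 UMIs in 56 cells. It had 14 UMIs in 13 of 282 mESCs, 7.43 CPM (4.06 to 12.5), then 0 at 6 and 12 h, 3 at 24 h, 9 at 36 h, 13 at 48 h, 26 at 60 h, 15 at 72 h and 2 in 137 cells at 96 h. The 60 h value was 15.1 CPM (9.87 to 22.1), with 8 UMIs in a single cell, and the 6 h interval reached only 1.42 CPM. Counts of Lgals4 were therefore above 0 in mESCs, not detected at 6 and 12 h and detected again from 24 h. Cells with an Lgals4 UMI were deeper than the others at each time point where it was detected, as in mESCs with medians of 17212 against 3905 UMIs, and after each cell was thinned to 2000 UMIs 4 mESCs, 7 cells at 48 h and 3 at 60 h kept one, with 0 to 2 at the other time points. XEN markers in cells with and without Lgals4 had no one order: at 60 h their mean was 12.2 against 14.7 per 10000 UMIs and their median 11.3 against 9.19, and at 72 h the mean was 18.9 against 24.2 and the median 21.3 against 10.9. At 36 h the mean was 4.70 in cells with Lgals4 and 2.50 in those without.

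Tspan8 had 18 UMIs in 17 cells, 5 at 6 h, 3 at 36 h, 4 at 48 h and 6 at 60 h, and 0 at the other time points, which include 96 h with 137 cells. Its highest level was 3.49 CPM (1.28 to 7.59) at 60 h, where the 6 cells with Tspan8 held XEN markers at a mean of 27.6 per 10000 UMIs against 14.3 in the other cells, with median depths of 24416 and 4331 UMIs. At 96 h the interval reached 5.08 CPM, below the 15.9 CPM of the bulk library of that time. Atp4a had 9 UMIs in 7 of 334 cells at 36 h and 0 in the kept cells of the other samples. After thinning to 2000 UMIs no cell kept one, and the bulk library at 36 h had 0.

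SMART-seq2 reads whole transcripts, and its values are RPKM, reads scaled by transcript length and library size. The depth of each cell is unknown from these values. Tff1 and Atp4b were at 0 in all 339 cells, and Gkn1 was above 0 in 2 cells, Muc5ac in 2, Psca in 4 and Anxa10 in 5.

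Lgals4 was above 0 in 18 of 82 mESCs (mean 5.95 RPKM), 4 of 86 cells at 12 h (0.401), 15 of 89 at 24 h (6.31) and 24 of 82 at 48 h (25.7). The exact 95% interval of its share was 13.6% to 32.5% in mESCs and 1.28% to 11.5% at 12 h, around 4.65%. In both single-cell methods the lowest value of Lgals4 fell in the first 12 h of RA. Tspan8 was above 0 in 2, 1, 3 and 16 cells at the same times, and at 48 h its mean was 12.9 RPKM, with 493 RPKM in a single cell. Both genes were detected in 6 of the same cells at 48 h. Of the 24 cells with Lgals4 at 48 h, 7 had Pdgfra above 0, against 16 of the 58 without. The mean of Pdgfra was 10.0 RPKM with Lgals4 and 3.73 without, that of Sparc 95.2 against 73.6 and that of Cd24a 39.1 against 118. For Tspan8 the corresponding counts were 5 of 16 and 18 of 66, with Pdgfra at a mean of 6.29 against 5.39 RPKM, Sparc at 82.1 against 79.4 and Cd24a at 103 against 93.3.

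Cldn18, with 0 UMIs in SCRB-seq, was above 0 in 15 of 86 cells at 12 h and 16 of 89 at 24 h, against 2 in mESCs and 4 at 48 h. The median of the detected cells was 11.6 RPKM at 12 h and 0.659 RPKM at 24 h, and 10 cells at 12 h and 4 at 24 h were above 1 RPKM. Atp4a was above 0 in 3, 3, 6 and 4 cells. Each time point is 1 sample, so no test was made between them.

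**Figure D4:**
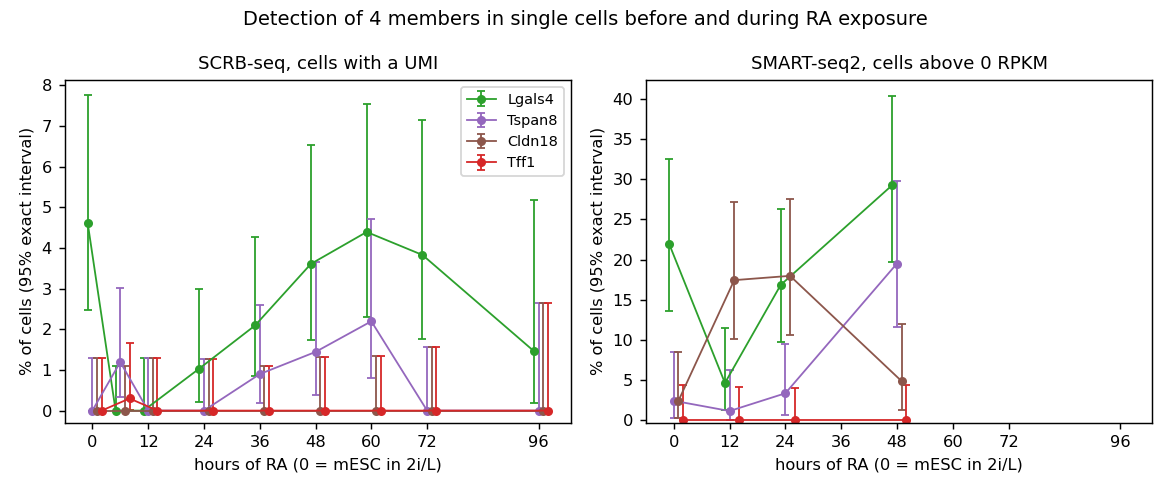
Percent of cells in which Lgals4, Tspan8, Cldn18 and Tff1 were detected, against hours of RA, in SCRB-seq (left, at least 1 UMI) and SMART-seq2 (right, above 0 RPKM). Bars are exact 95% binomial intervals over cells of 1 sample per time point and points are shifted by up to 2 h for sight. Lgals4 falls to 0% at 6 and 12 h in SCRB-seq and to 4.65% at 12 h in SMART-seq2, while Tff1 is at or near 0 throughout.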

How the data were processed

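Bulk and SCRB-seq files hold the deposited counts of UMIs per gene, made by the authors from reads aligned with BWA 0.7.4 (submitters' processing notes, mm10) and not normalized. SMART-seq2 files hold RPKM deposited by the authors, for which the notes name TopHat and Cuffnorm, and 0.127% to 0.140% of their values per sample carried a decimal comma, which was read as a point. Genes with a damaged value in the bulk table (Gkn2, Rn45s) and repeated gene names were left out.

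CPM used the remaining totals. Ratios of XEN-like culture to sorted XEN-like cells have exact conditional intervals, and a group at 0 was set to 3 UMIs. Replicated groups were compared with edgeR 4.0.16 in R 4.3.3 (TMM, filterByExpr, quasi-likelihood, Benjamini-Hochberg, 0.05), without a replicate block, and with DESeq2 1.42.0 as an alternative. The script was tested on simulated data. SCRB-seq wells over 2000 UMIs were kept, and doublets were not called. Coordinates are those of GENCODE M21 (GRCm38). Named genes were all members, the highest genes of each list with its defining markers, and the 10 most like genes by 2 rules, with further list genes named after their values were seen. Members and lists were chosen with earlier results of these data known.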

Additional observations from a re-analysis of the deposited data

How the results depend on the processing

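The number of members past 10-fold stayed at 9 under every scaling tried (total without the members, TMM, Gapdh, and, chosen after seeing the data, Actb or Gkn2 in the total), and without either sorted XEN-like replicate (9 to 9). Since the members were chosen by this contrast and their ratios are large, that number could hardly have changed. All 70 member ratios under these settings stayed above 1, although 34 moved by more than a spread between the sorted replicates. For this spread, sorted counts below 3 UMIs were set to 3. For Muc5ac, Anxa10, Cldn18, Atp4a and Atp4b it came only from the library totals, and for Psca in part from the floor. A move past it is therefore not a move past the observed spread for these members. Without sorted XEN-like replicate 1, the log2 ratio of Psca was 12.41 in place of 11.08, of Muc5ac 9.21 in place of 12.28 and of Cldn18 10.53 in place of 12.01, and without replicate 2 Muc5ac was at 11.64 and Cldn18 at 9.79. The 9.21 and the 9.79 were taken at the floor of 3 UMIs, because the replicate left out held the only UMI. With both replicates, the counting intervals were 892- to 196573-fold for Muc5ac and 740- to 163073-fold for Cldn18. The scalings shifted the median log2 ratio of all genes by -0.12 to 0.74. The number of all genes past 10-fold was 279 (TMM) to 405 (Actb) under the scalings, in place of 296. It was 613 with at least 10 UMIs, 696 with at least 1 UMI, and 299 to 333 without a sorted XEN-like replicate. The level of culture-specific genes in other libraries was 0.0439% with 99% of summed CPM required, which left 2 genes.

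Replicate numbers were shared by the sorted populations, and nothing in the labels ties the same number to the same day. Differences between replicates 1 and 2 correlated at 0.333 between sorted ectoderm-like and XEN-like cells over 8945 genes, and at 0.0202 between mESCs and XEN-like cells, so the numbers were not taken as pairs. With a replicate block, 2512 genes were called between XEN-like cells and mESCs instead of 2042, and 2159 between ectoderm-like cells and mESCs instead of 1707. Between the sorted populations the block was fitted without the mESC libraries, on 8167 genes, and 2610 were called instead of 1135. That change therefore mixes the block with a smaller set of libraries and genes. Without 1 replicate, where the lone library is assumed to vary like the other groups, the calls were 1265 to 1953 for XEN-like cells against mESCs, 862 to 1748 for ectoderm-like cells against mESCs and 262 to 1370 between the sorted populations. The lowest of these was without ectoderm-like replicate 1, and without its replicate 2 or XEN-like replicates 1 or 2 the calls between the sorted populations were 657, 465 and 548. The lowest against mESCs were without XEN-like replicate 1 (1265) and ectoderm-like replicates 2 and 1 (862 and 1010). DESeq2 called 1544, 1210 and 778. No member was called in any of the 30 combinations of setting and comparison, which overlap in their libraries and tested 2 to 9 of the members each. Depth limits the members with few UMIs in the sorted libraries.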

Other observations

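Gkn2, the gastrokine gene that lies 22414 bases from Gkn1 on chromosome 6 (87373357 to 87379497, plus strand), was no member, because its entry for the XEN-like culture was text and not a usable number. It was singled out after its values were seen. In the other 24 libraries it had 31 to 111 UMIs, with a median of 80.5 and a sum of 1752, against 1285 for Tff1 and 1261 for Gkn1, and the sorted XEN-like replicates had 87 and 40. If Gkn2 stood to Tff1 or to Gkn1 in the culture as it did in the sum of the other libraries, its count there would be 111823 or 108913 UMIs. The damaged entry, read as a number that lost its decimal point, would be 121000. With that count, Tff1, Gkn1 and Gkn2 together would make up 17.9% of the culture's UMIs, and Tff1 alone 5.22% in place of 5.66%. In the single-cell plates Gkn2 had 4 UMIs in 4 of 2448 cells.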
